A study of Citrullus lanatus with 30 samples.

Results

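Gene expression in the flesh of watermelon (Citrullus lanatus) fruits of the mutant that the labels call clnor was compared between 26 and 18 days after pollination (DAP). The 15001 genes with at least 1 TPM (a transcript abundance scaled for transcript length and library total) in at least 3 of the 6 clnor libraries of these ages were tested, out of 22596 genes in the deposited table. At 26 DAP more genes were lower than higher among aquaporins (13 of 23 lower), core histones (15 of 34), ethylene genes (11 of 21), pectin-modifying genes (20 of 58) and organic acid genes (17 of 44), while more were higher than lower among jasmonate genes (12 of 28 higher), WRKY factors (19 of 44), AP2/ERF factors (24 of 75) and heat shock genes (61 of 203). Genes of the circadian clock moved in both directions, with LHY falling by 4.47 on the log2 scale and GIGANTEA rising by 2.38. A gene was called where limma, fitted over all genes, gave a Benjamini-Hochberg adjusted p below 0.05. In all, 5276 genes were called, which was 35.2% of those tested, with 2708 (18.1%) higher and 2568 (17.1%) lower at 26 DAP.

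The study took flesh of wild type (WT) and clnor fruits at 5 ages from 10 to 42 DAP, 8 days apart, with 3 libraries per genotype and age and 30 in all. The labels do not describe the mutation or the gene it hits, and no gene description in the table names it, so the genotype was not checked on a target gene. Nothing in the labels says whether replicates were separate fruits or plants, so each p-value rests on a spread among libraries that could be purely technical. Both ages of the comparison carried the clnor genotype, and the WT libraries of 18 and 26 DAP served as the reference for how that step ran in WT. In WT the lists named above leaned the same way. Called higher and lower there were 0 and 11 aquaporins, 3 and 14 histones, 1 and 10 ethylene, 5 and 16 pectin and 1 and 17 organic acid genes. For jasmonate genes it was 11 and 1, for WRKY 16 and 7, for AP2/ERF 27 and 9 and for heat shock 51 and 20. In bulk flesh, fewer cells of a type and less RNA per cell cannot be told apart.

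Watermelon flesh first grows by cell division and then by cell expansion, and at ripening it accumulates sugars and carotenoids while its cell walls soften. In tomato, the NAC transcription factor NON-RIPENING (NOR), after which the mutant appears to be named, is needed for ripening, as is the hormone ethylene there. Expansion draws on gibberellin, on aquaporins, which are membrane channels for water, and on enzymes that loosen the wall. Jasmonate is a fatty-acid-derived hormone that plants make on wounding and during development, and its signal is held in check by repressor proteins of the TIFY family.

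Of the 3 libraries at 18 DAP, replicate 3 stood apart. Its log2 values correlated at 0.975 with the nearest group, WT 18 DAP, and at 0.932 with its own group, against 0.969 with their own group for replicates 1 and 2. The reverse held for replicate 3 of WT 18 DAP, which correlated at 0.965 with clnor 18 DAP and at 0.935 with its own group. Each of these libraries was thus nearest to the other genotype. Whether they were exchanged was not tested: the labels are used as given, and every clnor 18 DAP value and WT 18 DAP mean here depends on them. Without both libraries, 6755 genes were called between the ages in clnor, against 5276 with them. At other ages, further clnor libraries were nearest to a group not their own. Replicate 1 of 10 DAP was nearest to WT 10 DAP (0.971 against 0.952 with its own group). Replicate 3 of 10 DAP was nearest to clnor 18 DAP (0.965 against 0.928), and replicate 2 of 34 DAP to clnor 42 DAP (0.953 against 0.944). These libraries entered the fit and the means quoted for their ages. On a scale where each gene runs from 0 at 18 DAP to 1 at 26 DAP, with each library placed by genes chosen without it, the median positions of the 18 DAP libraries were 0.05, 0.04 and 0.23, and those of the 26 DAP libraries 1, 1.06 and 0.77. Replicate 3 therefore lay farthest towards the other age at both ages, and no library crossed to the other side. Sums over the table were 974304 to 985203 TPM in these 6 libraries. Genes that set replicate 3 of 18 DAP apart, chosen after their values were seen, include an 11S globulin seed storage protein (Cla97C05G092030) with 0.46, 3.25 and 1057 TPM at 18 DAP and 1.13, 0.76 and 0.87 TPM at 26 DAP. Only replicate 3 of 18 DAP was high, and the groups overlapped. The WT 18 DAP libraries held 1829.5, 5067 and 959 TPM of this transcript. A nodulin-like transporter (Cla97C02G031010) had 11.7, 41 and 1666 TPM at 18 DAP and 20.6, 35 and 33 TPM at 26 DAP, against 3535, 7394 and 1769 TPM in WT 18 DAP. It too was high in replicate 3 of 18 DAP alone, and neither gene was called (adjusted p = 0.0628 and 0.201). Without replicate 1 of 18 DAP both were called, at -5.13 (adjusted p = 0.0135) and -3.15 (adjusted p = 0.0329).

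The number of calls depended on single libraries. It was 3219 without replicate 1, 2924 without replicate 2 and 6750 without replicate 3 of 18 DAP, and 3670, 5211 and 4883 without replicates 1, 2 and 3 of 26 DAP. The gene lists followed the same libraries: of 41 lists, 36 had their fewest calls without replicate 2 of 18 DAP (ties included) and 39 their most without replicate 3 of 18 DAP. The ranges given for lists are those over the 6 clnor libraries, each left out in turn. Each list's counts are to be read beside the 18.1% called higher and 17.1% called lower over all genes tested. Of the 5276 genes called, 3181, 2911 and 5030 were also called without replicates 1, 2 and 3 of 18 DAP, and 3631, 4706 and 4591 without replicates 1, 2 and 3 of 26 DAP. A change of 2-fold or more on the log2(TPM + 1) scale, which understates changes of genes at low level, was seen in 1174 of the genes called higher (7.83% of those tested) and 1117 of those called lower (7.45%). At 16-fold or more, 47 genes were higher and 18 lower. Libraries of the 2 ages did not overlap for 7154 genes (47.7%), and 4974 of these were also called (33.2%). The median change over all genes tested was -0.01 on the log2 scale. The 148 genes that reached 1 TPM at 18 DAP but in no library of 26 DAP included 124 called lower, and the 168 that did so at 26 DAP alone included 148 called higher. Those genes had to differ to be kept. Of the genes described below, CONSTANS and the cyclin Cla97C08G159930 were kept through 18 DAP alone. Kept through 26 DAP alone were Cla97C01G017090, Cla97C02G032880, Cla97C02G048380, Cla97C03G058010, Cla97C05G081650, Cla97C09G165080 and Cla97C09G183890. Their calls add no support to a change, since the filter favoured it, and the list counts include such genes.

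**Figure D1:**
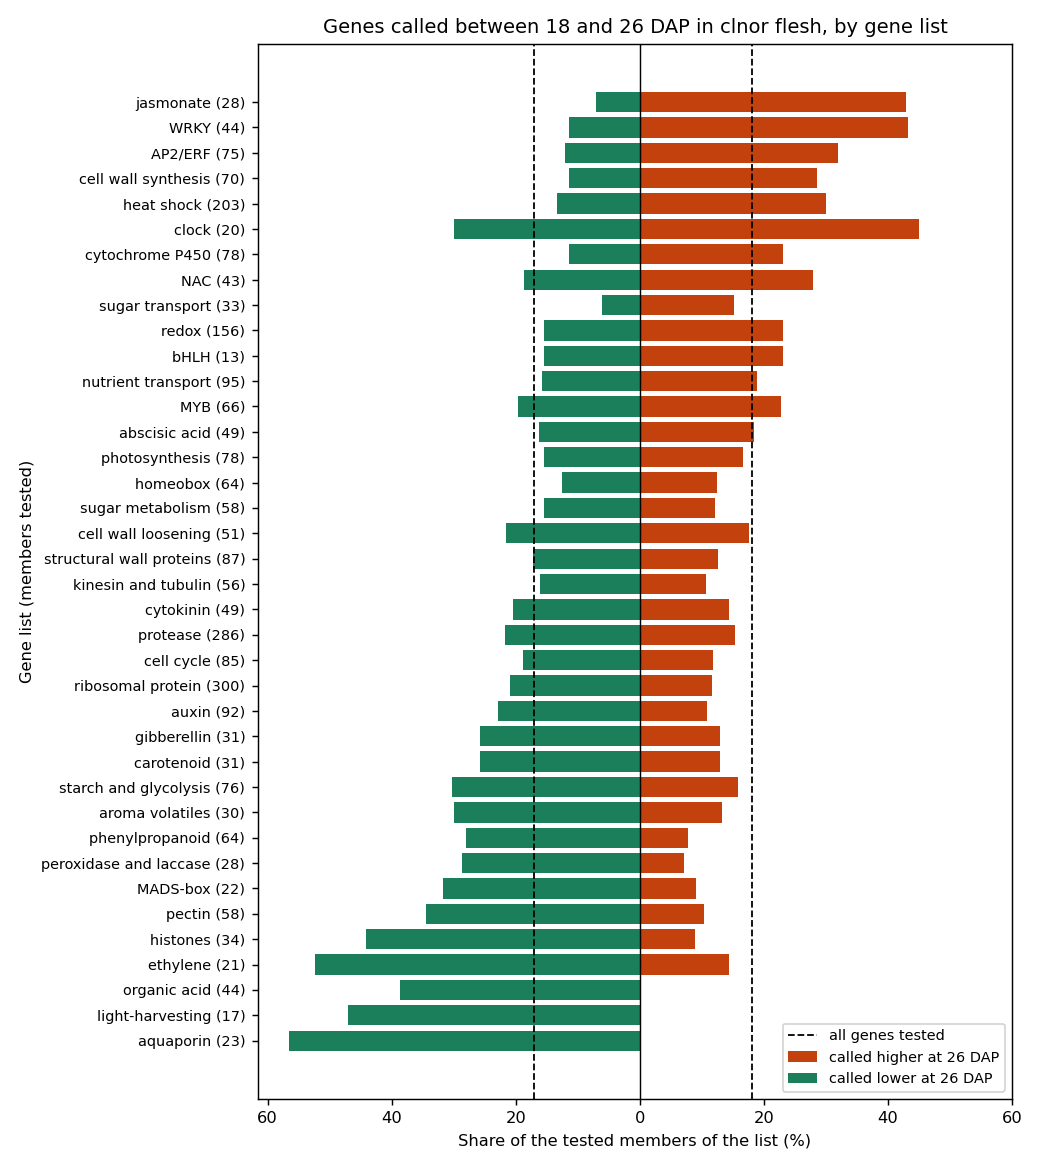
Share of the tested members of each gene list that was called higher (right, orange) or lower (left, green) at 26 DAP in clnor flesh, in percent, with the number of members tested in parentheses and dashed lines at the 18.1% and 17.1% over all genes tested. Aquaporins reach farthest to the left, with 13 of 23 called lower and 0 higher, and clock, WRKY and jasmonate genes farthest to the right.

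The 12 deepest falls included genes of gibberellin, lipid transfer, light harvesting, the clock and water transport. Gibberellin 20-oxidase (Cla97C05G089570), which makes the direct precursors of active gibberellins, was listed at 256, 317 and 2024 TPM at 18 DAP and 2.13, 1.7 and 2.65 TPM at 26 DAP. All 3 libraries of 18 DAP were high, replicate 3 most of all, and all 3 of 26 DAP were low (-7.45 ± 0.80 (SE) on the log2 scale, adjusted p = 9.46e-07). In WT the same transcript had 2585 ± 2246 TPM at 18 DAP and 270 ± 275 TPM at 26 DAP (mean ± SD, n = 3), a change of -3.26 (adjusted p = 0.00884). A gibberellin-regulated protein (Cla97C10G197900), of a family of small cysteine-rich proteins, had 134, 205 and 8.99 TPM at 18 DAP and 0, 1.39 and 3.67 TPM at 26 DAP. Replicate 3 of 18 DAP was far below the other 18 DAP libraries, and the groups did not overlap (-4.87 ± 1.07 (SE) on the log2 scale, adjusted p = 0.00128). Among the 31 gibberellin genes, 4 were called higher and 8 lower, with a median of -0.39, and 1 to 6 higher and 6 to 12 lower were called when a clnor library was left out. A Pollen Ole e I family protein (Cla97C05G095480) fell from 410.4 and 472 TPM in replicates 1 and 2 and 72.4 TPM in replicate 3 to between 2.91 and 3.78 TPM at 26 DAP (-5.79 ± 0.79 (SE) on the log2 scale, adjusted p = 1.52e-05).

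Lipid transfer proteins, small secreted proteins that bind lipids, were also among the deepest falls. Cla97C09G170830 had 260.1, 222 and 23.2 TPM at 18 DAP and 0.28, 1.08 and 0.59 TPM at 26 DAP. Each library of 18 DAP lay above each of 26 DAP, with replicate 3 lowest at 18 DAP (-6.12 ± 0.74 (SE) on the log2 scale, adjusted p = 3.81e-06). Cla97C06G120660, a protein of the same fold, had 973, 1454 and 32.5 TPM at 18 DAP and 11.5, 12.1 and 16.7 TPM at 26 DAP, again with the lowest 18 DAP value in replicate 3 (-4.67 ± 1.11 (SE) on the log2 scale, adjusted p = 0.00244). Its change without replicate 2 of 18 DAP was -3.66 (adjusted p = 0.0552). The list of epidermis and cuticle markers, which holds such proteins, had a summed level of 3447, 4376 and 1758 TPM at 18 DAP and of 1105, 892 and 1226 TPM at 26 DAP, so all 3 libraries of 18 DAP were above all 3 of 26 DAP. Of its 53 tested members, 10 were called higher and 16 lower (median -0.28), with 4 to 12 higher and 6 to 17 lower when a clnor library was left out, and 0 were at 0 in all 6 libraries. The part of epidermis in the falls was not tested.

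**Figure D2:**
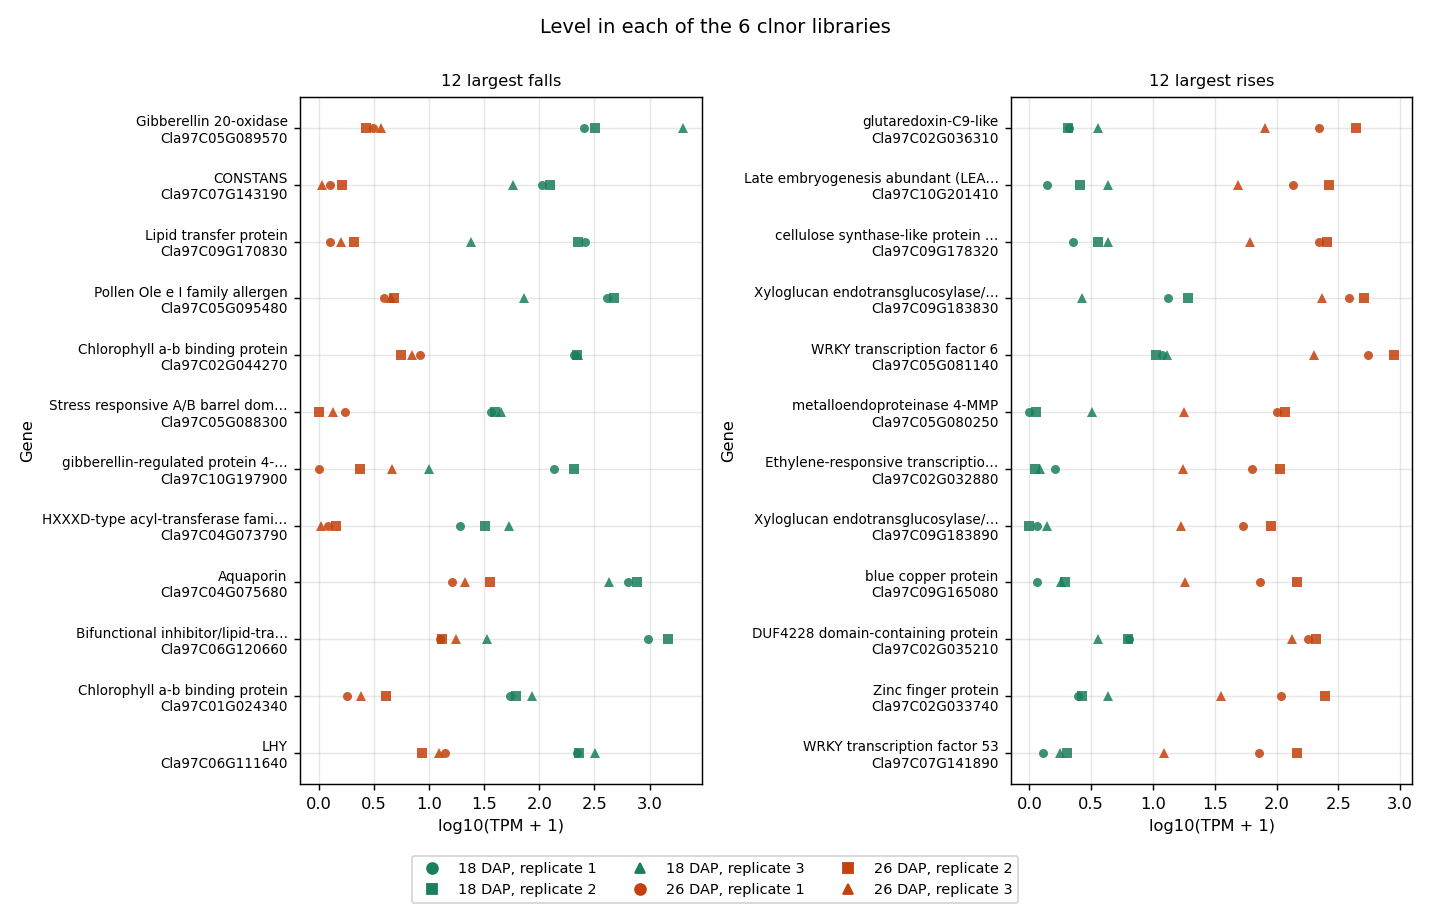
Level in each of the 6 clnor libraries, as log10(TPM + 1), of the 12 largest falls (left) and the 12 largest rises (right) among called genes with a description, non-overlapping libraries and a higher mean of at least 10 TPM. Green marks are 18 DAP, orange marks 26 DAP, and the shape gives the replicate. In the rises, replicate 3 of 26 DAP (triangle) is the lowest of its age, as for glutaredoxin-C9-like (79.7 against 219.7 and 439 TPM).

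Of 23 aquaporins tested, 13 were called lower and 0 higher, with a median of -1.39, against 17.1% called lower over all genes. Leaving out a clnor library in turn gave 10 to 15 called lower and 0 higher. Cla97C04G076230, an abundant member chosen after its values were seen, had 2647, 3042 and 1087 TPM at 18 DAP and 750.2, 991 and 1201 TPM at 26 DAP. Its replicate 3 of 18 DAP overlapped the 26 DAP libraries (-1.10 ± 0.29 (SE) on the log2 scale, adjusted p = 0.00549), and the change without replicate 1 of 18 DAP was -0.92 (adjusted p = 0.0669). Without replicate 2 of 18 DAP it was -0.82 (adjusted p = 0.0998). Cla97C07G132470 had 2005, 2068 and 2414 TPM at 18 DAP and 213, 177 and 248 TPM at 26 DAP. Here the groups were far apart and each age was tight (-3.35 ± 0.36 (SE) on the log2 scale, adjusted p = 1.05e-06). Cla97C04G075680 had 638, 761 and 432 TPM at 18 DAP and 15.2, 35 and 20.2 TPM at 26 DAP, and again no library overlapped (-4.69 ± 0.64 (SE) on the log2 scale, adjusted p = 1.39e-05). The abundant Aquaporin 1 (Cla97C01G002660), chosen after its values were seen, had 2145, 2337 and 1174 TPM at 18 DAP and 1109, 1170 and 1407 TPM at 26 DAP and was not called (-0.56 ± 0.22 (SE) on the log2 scale, adjusted p = 0.0519). Its replicate 3 of 18 DAP lay among the 26 DAP values, and without that library the change was -0.87 (adjusted p = 0.000229). Members of this family are similar in sequence and may share reads, so single members may be less certain than their sum. Read sharing was not measured. Summed over the list, the level was 9138, 10405 and 6233 TPM at 18 DAP and 2961, 3148 and 3812 TPM at 26 DAP, without overlap.

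Core histones, which package DNA, had 15 of 34 called lower and 3 higher (median -0.52), and 13 to 17 lower when a clnor library was left out. The shares over all genes were 17.1% lower and 18.1% higher. Their summed level did not follow the counts. It was 4765, 4611 and 4828 TPM at 18 DAP and 5035, 4105 and 4208 TPM at 26 DAP, so the ages overlapped. Histone H3.2 (Cla97C02G049550) had 74, 77.1 and 55.4 TPM at 18 DAP and 10.3, 7.55 and 10 TPM at 26 DAP. All libraries of 18 DAP were above all of 26 DAP (-2.76 ± 0.34 (SE) on the log2 scale, adjusted p = 4.8e-06). A histone H2A (Cla97C02G041250) had 22.1, 29.8 and 36.2 TPM at 18 DAP and 3.47, 0.6 and 4.75 TPM at 26 DAP. Its change was -3.11 ± 0.47 (SE) on the log2 scale, adjusted p = 3.88e-05. Against this direction, a histone H2B (Cla97C01G012800), chosen after its values were seen, had 74.8, 90.5 and 78.1 TPM at 18 DAP and 338, 345 and 172 TPM at 26 DAP and rose (1.74 ± 0.36 (SE) on the log2 scale, adjusted p = 0.000712). Cyclins also split. Cyclin-A3-2-like (Cla97C08G159930), of a cyclin type active during DNA synthesis, had 15.2, 15.7 and 7.63 TPM at 18 DAP and 0.25, 0.18 and 0.94 TPM at 26 DAP and fell (-3.23 ± 0.40 (SE) on the log2 scale, adjusted p = 5.39e-06). A gene described as Cyclin B1 (Cla97C02G048670), the name of a cyclin of mitosis, had 1.94, 2.26 and 2.86 TPM at 18 DAP and 57.2, 53.4 and 63.8 TPM at 26 DAP. Its libraries were tight within each age and far apart between ages, and it rose (4.15 ± 0.24 (SE) on the log2 scale, adjusted p = 1.57e-10). The inhibitor of cyclin-dependent kinases SMR3 (Cla97C05G107880), chosen after its values were seen, had 439.6, 428 and 227 TPM at 18 DAP and 54.7, 20.4 and 50.2 TPM at 26 DAP and fell (-3.16 ± 0.63 (SE) on the log2 scale, adjusted p = 0.00059). Over the 85 cell cycle genes, 10 were called higher and 16 lower (median -0.13), which was 11.8% and 18.8% against 18.1% and 17.1% over all genes. Leaving out a clnor library gave 5 to 9 higher and 8 to 24 lower. Kinesin and tubulin genes had 6 of 56 higher and 9 lower (median log2 change -0.25, and 3 to 8 higher and 1 to 17 lower with a library left out).

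Pectin-modifying genes, whose enzymes cut or de-esterify the pectin of the wall, had 20 of 58 called lower and 6 higher (median -0.39), with 13 to 24 lower and 1 to 5 higher when a clnor library was left out and 13 lower without replicate 2 of 18 DAP. Pectate lyase Cla97C05G084240 had 69.6, 124 and 9.94 TPM at 18 DAP and 1.25, 1.38 and 1.26 TPM at 26 DAP, without overlap (-4.32 ± 0.63 (SE) on the log2 scale, adjusted p = 2.59e-05). A further pectate lyase, Cla97C03G054380, had 29.5, 66.6 and 19 TPM at 18 DAP and 1.54, 0.32 and 0.95 TPM at 26 DAP (-4.21 ± 0.58 (SE) on the log2 scale, adjusted p = 1.67e-05). Both were highest in replicate 2 and lowest in replicate 3 within 18 DAP. Pectinesterase Cla97C09G168010 went the other way, with 8.48, 5.25 and 5.43 TPM at 18 DAP and 76.6, 66.9 and 78.2 TPM at 26 DAP, and its ages did not overlap (3.37 ± 0.40 (SE) on the log2 scale, adjusted p = 2.9e-06). Cell wall synthesis genes had 20 of 70 called higher and 8 lower (median 0.04), and 11 higher without the least favourable clnor library, 18 DAP replicate 1. Cellulose synthase-like protein D3 (Cla97C09G178320), of a family that makes wall polysaccharides, had 1.26, 2.58 and 3.31 TPM at 18 DAP and 218, 253 and 60.2 TPM at 26 DAP. Its change was 5.53 ± 0.78 (SE) on the log2 scale, adjusted p = 2e-05. Callose synthase 3 (Cla97C03G064100), which makes callose, had 121, 145 and 139 TPM at 18 DAP and 35.7, 45.2 and 39.9 TPM at 26 DAP and fell (-1.72 ± 0.22 (SE) on the log2 scale, adjusted p = 6.28e-06). Xyloglucan endotransglucosylases/hydrolases, which cut and rejoin xyloglucan chains, were among the largest rises. Cla97C09G183830 had 12.3, 18.2 and 1.68 TPM at 18 DAP and 387, 514 and 234 TPM at 26 DAP, with no overlap and with replicate 3 lowest at each age (5.36 ± 0.95 (SE) on the log2 scale, adjusted p = 0.000204). Cla97C09G183890 had 0.15, 0 and 0.39 TPM at 18 DAP and 53, 89.2 and 15.9 TPM at 26 DAP. Its change was 5.22 ± 0.77 (SE) on the log2 scale, adjusted p = 3.32e-05. The wall loosening list as a whole had 9 of 51 higher and 11 lower (median log2 change -0.31, and 5 to 12 higher and 4 to 16 lower with a library left out). Structural wall proteins had 11 of 87 higher and 15 lower (median log2 change -0.21, and 9 to 17 higher and 8 to 24 lower with a library left out). The shares were 17.6% higher and 21.6% lower for wall loosening and 12.6% and 17.2% for structural proteins, against 18.1% and 17.1% over all genes.

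Clock genes were listed by search words added after values were seen, so their count supports nothing by itself: 9 of 20 were called higher and 6 lower, against 18.1% and 17.1% over all genes. In Arabidopsis, LHY is a transcription factor that peaks near dawn, and transcripts of LNK1, LNK2 and REVEILLE 8 are also high in the morning. There, GIGANTEA, EARLY FLOWERING 3 and EARLY FLOWERING 4 act towards evening. LHY (Cla97C06G111640) had 219.6, 226 and 321 TPM at 18 DAP and 13, 7.66 and 11.2 TPM at 26 DAP. All 3 libraries of 18 DAP were high and all 3 of 26 DAP low (-4.47 ± 0.39 (SE) on the log2 scale, adjusted p = 7.77e-08). REVEILLE 8-like (Cla97C10G203850) had 34, 34.7 and 47.5 TPM at 18 DAP and 1.77, 0.59 and 1.07 TPM at 26 DAP. Its change was -4.23 ± 0.45 (SE) on the log2 scale, adjusted p = 9.11e-07. LNK1 (Cla97C10G192390) had 68.9, 71.7 and 69.7 TPM at 18 DAP and 4.15, 3.87 and 3.18 TPM at 26 DAP. Its change was -3.91 ± 0.55 (SE) on the log2 scale, adjusted p = 1.99e-05. The 4 morning genes named here were lower at 26 DAP, since LNK2 (Cla97C05G108980) had 161, 167 and 139 TPM at 18 DAP and 39.4, 31 and 31.1 TPM at 26 DAP and also fell (-2.17 ± 0.36 (SE) on the log2 scale, adjusted p = 0.000108). GIGANTEA (Cla97C09G172950) had 13.2, 17.5 and 16.8 TPM at 18 DAP and 93.9, 78.9 and 86.2 TPM at 26 DAP. It was low in every library of 18 DAP and high in every one of 26 DAP (2.38 ± 0.20 (SE) on the log2 scale, adjusted p = 3.44e-08). EARLY FLOWERING 4-like (Cla97C07G132630) had 0.76, 1.42 and 0.35 TPM at 18 DAP and 18.9, 15 and 14.2 TPM at 26 DAP. Its change was 3.24 ± 0.40 (SE) on the log2 scale, adjusted p = 4.16e-06. EARLY FLOWERING 3 (Cla97C08G160550) had 56.5, 64.1 and 55.6 TPM at 18 DAP and 173, 147 and 179.8 TPM at 26 DAP. Its change was 1.49 ± 0.22 (SE) on the log2 scale, adjusted p = 3.71e-05. PSEUDO-RESPONSE REGULATOR 7 (Cla97C04G075410), a repressor of LHY in Arabidopsis, had 58.6, 63.1 and 68.4 TPM at 18 DAP and 169, 138 and 155 TPM at 26 DAP and rose (1.27 ± 0.25 (SE) on the log2 scale, adjusted p = 0.000465). The labels give no hour of harvest, so age and hour of day cannot be told apart.

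**Figure D3:**
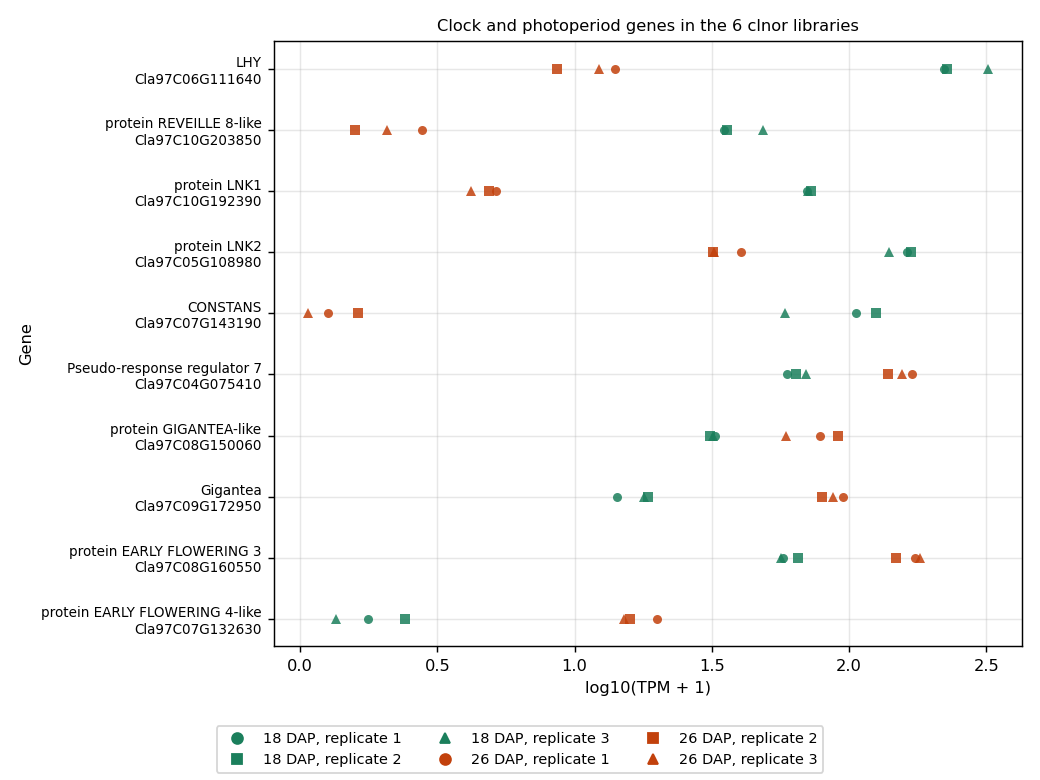
Level of 10 clock and photoperiod genes in each of the 6 clnor libraries, as log10(TPM + 1), with 18 DAP in green, 26 DAP in orange and the shape giving the replicate. LHY, REVEILLE 8-like, LNK1, LNK2 and CONSTANS are higher at 18 DAP, the other 5 higher at 26 DAP, and no gene overlaps between the ages.

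CONSTANS (Cla97C07G143190), which links day length to flowering in Arabidopsis, had 105, 124 and 57.4 TPM at 18 DAP and 0.26, 0.63 and 0.07 TPM at 26 DAP. No library of 26 DAP reached 1 TPM (-6.14 ± 0.59 (SE) on the log2 scale, adjusted p = 2.63e-07). Chlorophyll a-b binding proteins, which hold the chlorophyll of the light-harvesting antennae, had 8 of 17 called lower and 0 higher, with a median of -1.23. This list was also added after values were seen. Cla97C02G044270 had 207, 217 and 223 TPM at 18 DAP and 7.39, 4.53 and 5.97 TPM at 26 DAP. Its change was -4.98 ± 0.76 (SE) on the log2 scale, adjusted p = 4.56e-05. The more abundant Cla97C02G029240, chosen after its values were seen, had 503, 493 and 668 TPM at 18 DAP and 56.6, 219.6 and 49.4 TPM at 26 DAP, with replicate 2 highest at 26 DAP and no overlap (-2.67 ± 0.55 (SE) on the log2 scale, adjusted p = 0.00079). Its mean was 587 ± 535 TPM at 34 DAP and 665 ± 178 TPM at 42 DAP in clnor (± SD, n = 3), against 555 ± 98.2 TPM at 18 DAP, with a wide spread at the later ages. Chlorophyllide a oxygenase (Cla97C08G148460), which makes chlorophyll b, had 54.3, 66.3 and 46.5 TPM at 18 DAP and 6.27, 12 and 6.35 TPM at 26 DAP and fell (-2.66 ± 0.37 (SE) on the log2 scale, adjusted p = 1.75e-05). The wider list of 78 photosynthesis and chlorophyll genes had 13 called higher and 12 lower (median -0.13), shares near the background, with 6 to 16 higher and 8 to 24 lower when a clnor library was left out.

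Of 21 ethylene genes, 11 were called lower and 3 higher (median -0.65), and 7 to 11 lower when a clnor library was left out, with 7 without 18 DAP replicate 2. Over all genes tested, 17.1% were called lower and 18.1% higher. ACC oxidase (Cla97C02G043890), the enzyme that forms ethylene, was chosen after its values were seen and had 635, 701 and 1277 TPM at 18 DAP and 111, 142 and 88.9 TPM at 26 DAP. All 18 DAP values were above all 26 DAP values (-2.88 ± 0.47 (SE) on the log2 scale, adjusted p = 8.22e-05). An ethylene receptor (Cla97C09G168000) had 22, 34.4 and 13.4 TPM at 18 DAP and 2.66, 1.52 and 3.46 TPM at 26 DAP. Its change was -2.72 ± 0.38 (SE) on the log2 scale, adjusted p = 1.89e-05. EIN3-binding F-box protein 2-like (Cla97C11G209570), chosen after its values were seen and of a protein family that marks the ethylene factor EIN3 for breakdown, had 79.2, 121 and 176 TPM at 18 DAP and 42.3, 25 and 26.8 TPM at 26 DAP. Its change was -1.93 ± 0.31 (SE) on the log2 scale, adjusted p = 8.16e-05. The 3 genes called higher were all described as ACC synthases, which make the precursor of ethylene. Cla97C01G017090 had 0.5, 0.17 and 0.04 TPM at 18 DAP and 7.82, 2.15 and 6.66 TPM at 26 DAP. Its change was 2.29 ± 0.29 (SE) on the log2 scale, adjusted p = 6.26e-06. Cla97C07G135080, chosen after its values were seen, had 1.2, 4.54 and 2.77 TPM at 18 DAP and 14.9, 50.3 and 7.2 TPM at 26 DAP (2.40 ± 0.77 (SE) on the log2 scale, adjusted p = 0.0187), and its call was lost without replicate 1 (adjusted p = 0.144) or replicate 2 (adjusted p = 0.0619) of 18 DAP or replicate 2 of 26 DAP (adjusted p = 0.0697). All 3 libraries of 26 DAP were nonetheless above those of 18 DAP, at a low level.

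Of 28 jasmonate genes, 12 were called higher and 2 lower (median 0.36), and 8 to 11 higher when a clnor library was left out. The background over all genes was 18.1% higher and 17.1% lower. The list includes lipoxygenases, the enzyme family that oxidises fatty acids first on the synthesis route. Whether each of them serves jasmonate synthesis was not tested. A lipoxygenase (Cla97C09G163060) had 2.67, 4.25 and 3.98 TPM at 18 DAP and 159.6, 205 and 38 TPM at 26 DAP. All 26 DAP libraries were high, replicate 3 least so (4.57 ± 0.70 (SE) on the log2 scale, adjusted p = 4.78e-05). Allene oxide cyclase (Cla97C03G060720), which closes the ring of the precursor, had 4.43, 5.72 and 15.6 TPM at 18 DAP and 150, 194 and 54.8 TPM at 26 DAP. Its change was 3.80 ± 0.65 (SE) on the log2 scale, adjusted p = 0.000137. 12-oxophytodienoate reductase 3 (Cla97C03G065380), which reduces that ring, had 98.1, 89 and 126 TPM at 18 DAP and 244, 189 and 186 TPM at 26 DAP. Its change was 0.98 ± 0.20 (SE) on the log2 scale, adjusted p = 0.000652. Allene oxide cyclase and 12-oxophytodienoate reductase 3 were chosen after their values were seen. Among the TIFY genes, TIFY 5A (Cla97C01G024650) had 0, 0 and 2.22 TPM at 18 DAP and 20.9, 44.6 and 15.5 TPM at 26 DAP. Its change was 4.11 ± 0.44 (SE) on the log2 scale, adjusted p = 9.46e-07. TIFY 5A-like (Cla97C03G058010) had 0, 0 and 0.54 TPM at 18 DAP and 12.3, 38.7 and 11 TPM at 26 DAP. Its change was 4 ± 0.60 (SE) on the log2 scale, adjusted p = 3.8e-05. Neither overlapped between the ages, and both were at 0 in replicates 1 and 2 of 18 DAP. Means at later ages were lower: allene oxide cyclase had 3.68 ± 2.72 TPM at 34 DAP and 2.67 ± 1.22 TPM at 42 DAP in clnor, and the lipoxygenase 5.3 ± 0.708 and 29.2 ± 20.8 TPM (mean ± SD, n = 3).

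WRKY factors, many of which act in stress and defence, had 19 of 44 called higher and 5 lower (median 0.60), and AP2/ERF factors 24 of 75 higher and 9 lower (median 0.56). For these and the further factor families below, the shares over all genes were 18.1% higher and 17.1% lower. Leaving out a clnor library gave 13 to 21 WRKY and 19 to 28 AP2/ERF genes called higher, and 1 to 7 and 3 to 11 called lower. WRKY transcription factor 6 (Cla97C05G081140) had 10.9, 9.51 and 12.1 TPM at 18 DAP and 552, 895 and 201 TPM at 26 DAP. The 26 DAP libraries were all high but spread widely (5.30 ± 0.89 (SE) on the log2 scale, adjusted p = 0.000118). WRKY transcription factor 53 (Cla97C07G141890) had 0.29, 1.02 and 0.78 TPM at 18 DAP and 70.5, 145 and 11.4 TPM at 26 DAP. Its change was 4.92 ± 0.77 (SE) on the log2 scale, adjusted p = 5.35e-05. Ethylene-responsive transcription factor 10 (Cla97C02G032880) had 0.6, 0.11 and 0.22 TPM at 18 DAP and 62.9, 106 and 16.4 TPM at 26 DAP. Its change was 5.25 ± 1.06 (SE) on the log2 scale, adjusted p = 0.000673. Each of these had its lowest 26 DAP value in replicate 3. NAC factors, the family of NOR in tomato, had 12 of 43 higher and 8 lower (median log2 change 0.17, and 10 to 17 higher and 4 to 9 lower with a library left out). NAC domain-containing protein 67 (Cla97C02G036810) had 12.9, 14.4 and 38.4 TPM at 18 DAP and 301, 259 and 224 TPM at 26 DAP. Its change was 3.68 ± 0.39 (SE) on the log2 scale, adjusted p = 8.65e-07. NAC domain-containing protein 90 (Cla97C02G048380) had 0.09, 0.34 and 0.57 TPM at 18 DAP and 41.6, 113 and 11 TPM at 26 DAP. Its change was 4.88 ± 0.73 (SE) on the log2 scale, adjusted p = 3.93e-05. MADS-box factors had 2 of 22 higher and 7 lower (median log2 change -0.61, and 1 to 2 higher and 5 to 10 lower with a library left out). AGAMOUS (Cla97C01G024020), of a lineage that specifies carpels and fruit, had 165, 196 and 263 TPM at 18 DAP and 105, 93 and 96.9 TPM at 26 DAP. Its change was -1.05 ± 0.22 (SE) on the log2 scale, adjusted p = 0.00103. MADS-box transcription factor Cla97C07G143010 had 312, 319 and 337 TPM at 18 DAP and 134, 128 and 110.1 TPM at 26 DAP, again with no overlap (-1.38 ± 0.21 (SE) on the log2 scale, adjusted p = 4.06e-05). MYB genes had 15 of 66 higher and 13 lower (median log2 change 0.09, and 9 to 16 higher and 9 to 16 lower with a library left out), bHLH genes 3 of 13 higher and 2 lower (median log2 change 0.01, and 3 to 4 higher and 1 to 5 lower with a library left out) and homeobox genes 8 of 64 higher and 8 lower (median log2 change -0.22, and 3 to 10 higher and 4 to 17 lower with a library left out).

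**Figure D4:**
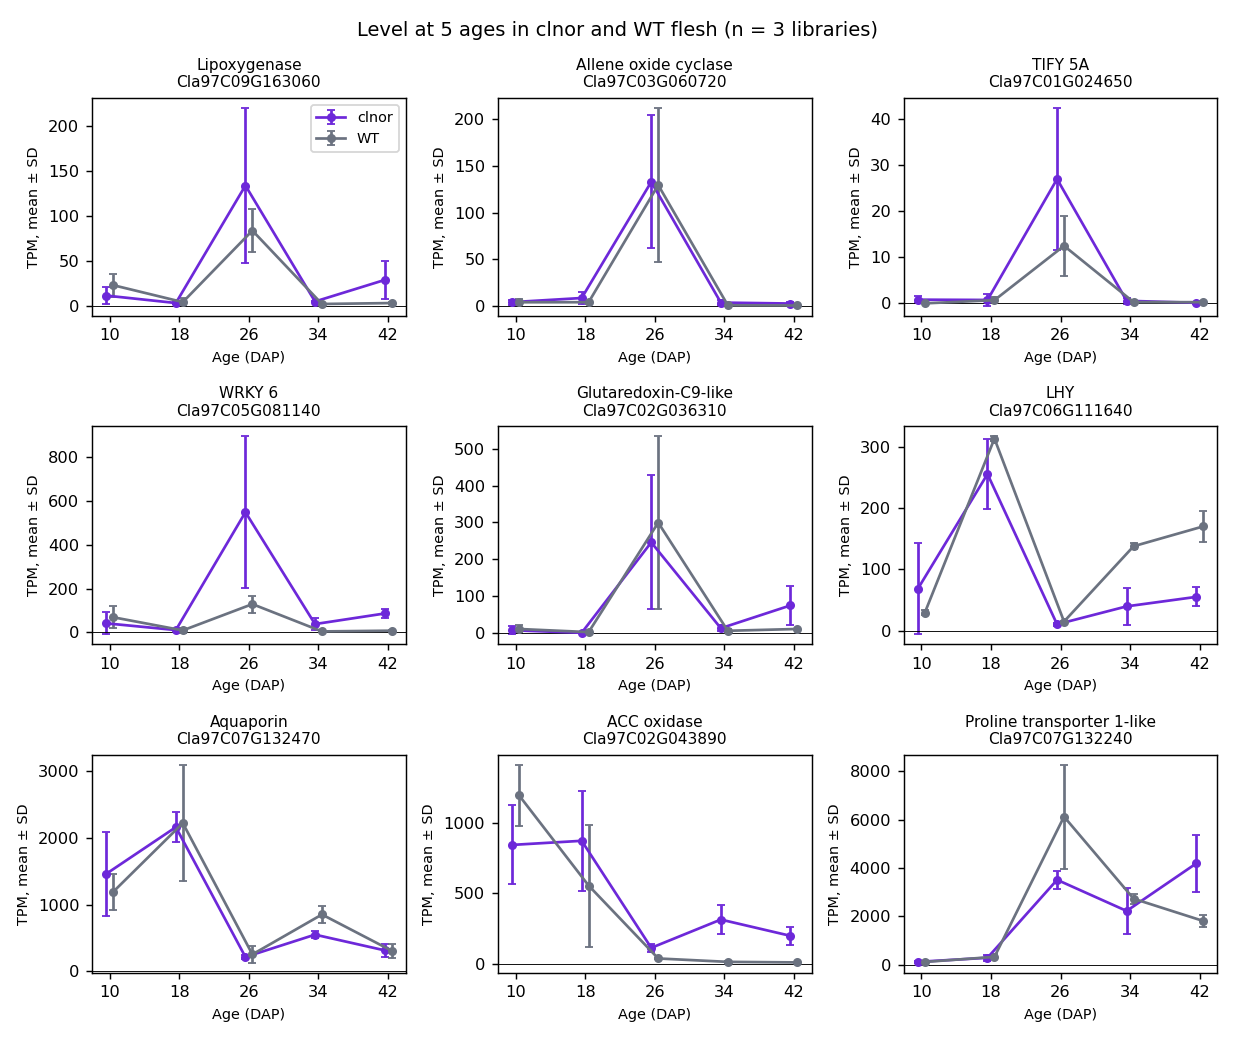
Mean level in TPM with SD (n = 3 libraries) of 9 genes at 5 ages in clnor (purple) and WT (grey) flesh. Lipoxygenase, allene oxide cyclase, TIFY 5A, WRKY 6 and glutaredoxin-C9-like have their highest mean at 26 DAP in both genotypes, with wide SDs, and LHY, an aquaporin and ACC oxidase have higher means at 18 than at 26 DAP in both. In clnor, allene oxide cyclase went from 132.9 ± 71.2 TPM at 26 DAP to 3.68 ± 2.72 TPM at 34 DAP.

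The largest rise of all by the naming rule was glutaredoxin-C9-like (Cla97C02G036310), of a family of small redox proteins, with 1.11, 1.04 and 2.56 TPM at 18 DAP and 219.7, 439 and 79.7 TPM at 26 DAP. Each library of 26 DAP was far above those of 18 DAP (6.32 ± 0.98 (SE) on the log2 scale, adjusted p = 5.02e-05). Metalloendoproteinase 4-MMP (Cla97C05G080250) had 0, 0.13 and 2.21 TPM at 18 DAP and 101, 116 and 16.7 TPM at 26 DAP. Its change was 5.28 ± 0.98 (SE) on the log2 scale, adjusted p = 0.000299. A blue copper protein (Cla97C09G165080) had 0.15, 0.95 and 0.79 TPM at 18 DAP and 72.3, 146 and 17.2 TPM at 26 DAP. Its change was 5.19 ± 0.79 (SE) on the log2 scale, adjusted p = 4.47e-05. A LEA hydroxyproline-rich protein (Cla97C10G201410) had 0.39, 1.57 and 3.31 TPM at 18 DAP and 135, 266 and 47.5 TPM at 26 DAP. Its change was 5.60 ± 0.89 (SE) on the log2 scale, adjusted p = 6.32e-05. The 4 genes shared the order within 26 DAP, highest in replicate 2 and lowest in replicate 3. Redox genes as a list had 36 of 156 higher and 24 lower (median log2 change 0.08, and 22 to 49 higher and 9 to 30 lower with a library left out), and proteases 44 of 286 higher and 62 lower (median log2 change -0.07, and 28 to 64 higher and 31 to 72 lower with a library left out).

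Heat shock and chaperone genes had 61 of 203 called higher and 27 lower (median 0.12). Leaving out a clnor library gave 41 to 78 higher and 15 to 29 lower. The members described here were all called higher, and none of the 27 called lower is described. Among all genes tested, 18.1% were called higher and 17.1% lower. A 17.8 kDa class I heat shock protein (Cla97C07G132300), of the small chaperones that bind unfolding proteins, had 80.3, 26.2 and 156 TPM at 18 DAP and 1201, 1092 and 995 TPM at 26 DAP (3.96 ± 0.48 (SE) on the log2 scale, adjusted p = 4.16e-06). A further gene of that description, Cla97C07G132190, had 39.8, 86.4 and 86.9 TPM at 18 DAP and 1042, 931 and 1398 TPM at 26 DAP. Its change was 4.03 ± 0.53 (SE) on the log2 scale, adjusted p = 8.57e-06. In both, every library of 26 DAP was far above every library of 18 DAP, and both were chosen after their values were seen. Chaperone protein dnaJ (Cla97C09G180610), of the co-chaperones of HSP70, had 12.7, 11.7 and 8.13 TPM at 18 DAP and 283, 388 and 344 TPM at 26 DAP. Its change was 4.85 ± 0.37 (SE) on the log2 scale, adjusted p = 1.28e-08. A 70 kDa heat shock protein (Cla97C09G172860) had 1.21, 1.43 and 2.45 TPM at 18 DAP and 23.7, 45.9 and 26.6 TPM at 26 DAP. Its change was 3.58 ± 0.31 (SE) on the log2 scale, adjusted p = 5.24e-08. Means of these dnaJ and 70 kDa genes were 517 ± 85.3 and 145 ± 22.4 TPM at 42 DAP in clnor (± SD, n = 3).

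In absolute level, the largest rise was that of S-adenosylmethionine synthase (Cla97C09G167000), which makes the methyl donor that is also the source of ethylene and polyamines, with 5195, 5042 and 2099 TPM at 18 DAP and 14889, 7536 and 12533 TPM at 26 DAP. All 26 DAP libraries exceeded those of 18 DAP, where replicate 3 was lowest (1.56 ± 0.34 (SE) on the log2 scale, adjusted p = 0.00117). Proline transporter 1-like (Cla97C07G132240), of a family of amino acid carriers, had 209, 213 and 424 TPM at 18 DAP and 3782, 3075 and 3678 TPM at 26 DAP. It was low in all of 18 DAP and high in all of 26 DAP (3.71 ± 0.33 (SE) on the log2 scale, adjusted p = 8.22e-08). Glycine-rich RNA-binding protein 1-like (Cla97C11G211170) had 939, 1156 and 485 TPM at 18 DAP and 4244, 3598 and 3409.5 TPM at 26 DAP. Its change was 2.21 ± 0.29 (SE) on the log2 scale, adjusted p = 8.35e-06. Tetraspanin-8-like (Cla97C06G122090), a membrane protein, had 320.5, 416 and 189.7 TPM at 18 DAP and 2512, 3253 and 1493 TPM at 26 DAP. Its change was 2.97 ± 0.63 (SE) on the log2 scale, adjusted p = 0.000973. Further abundant rises were smaller in proportion. ADP-ribosylation factor (Cla97C09G180550), a small GTPase of vesicle traffic, rose by 0.79 and the dnaJ protein homolog Cla97C05G103700 by 0.76 on the log2 scale (adjusted p = 0.000128 and 0.000626). The dnaJ homolog was not called with quantile normalization (0.32, adjusted p = 0.162) or with the 6 libraries alone (0.76, adjusted p = 0.0651).

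The largest called fall in absolute level was that of fibrous sheath CABYR-binding protein-like (Cla97C01G021030), with 12872, 13389 and 7349 TPM at 18 DAP and 2426, 2765 and 5978 TPM at 26 DAP. Its ages did not overlap but replicate 3 of both lay close together (-1.66 ± 0.54 (SE) on the log2 scale, adjusted p = 0.0207), and the call was lost without replicate 1 or 2 of 18 DAP (adjusted p = 0.123 and 0.142) or replicate 1 of 26 DAP (adjusted p = 0.109). S-adenosylmethionine decarboxylase (Cla97C05G093830), which commits the methyl donor to polyamines, had 2315, 2378 and 5916 TPM at 18 DAP and 1113, 1229 and 1099 TPM at 26 DAP. Replicate 3 of 18 DAP was highest, and no values overlapped (-1.48 ± 0.26 (SE) on the log2 scale, adjusted p = 0.000195). Pathogenesis-related protein 1-like (Cla97C02G034010), a secreted defence protein, had 1561, 1179 and 5439 TPM at 18 DAP and 145, 129.9 and 514 TPM at 26 DAP. Its change was -3.33 ± 0.83 (SE) on the log2 scale, adjusted p = 0.00363. Proline-rich protein DC2.15 (Cla97C08G156820) had 2568, 3199 and 401 TPM at 18 DAP and 105, 80.8 and 157 TPM at 26 DAP. Its change was -3.74 ± 0.76 (SE) on the log2 scale, adjusted p = 0.000651. Early nodulin-93-like (Cla97C11G209360) had 1639.6, 1623 and 1017 TPM at 18 DAP and 108, 52.4 and 114 TPM at 26 DAP. Its change was -4 ± 0.68 (SE) on the log2 scale, adjusted p = 0.000122. Of these last 3, the first was highest in replicate 3 of 18 DAP and the other two lowest there.

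Among metabolic genes, those of organic acids and the citric acid cycle had 17 of 44 called lower and 0 higher (median -0.25). Leaving out a clnor library gave 8 to 16 lower, with 8 without replicate 1 of 26 DAP and 9 without replicate 2 of 18 DAP, and 0 to 3 higher, with 3 without replicate 3 of 18 DAP. Malate dehydrogenase (Cla97C06G116670), which interconverts malate and oxaloacetate, had 802, 841 and 1260.2 TPM at 18 DAP and 389, 381 and 380 TPM at 26 DAP. The 26 DAP libraries were nearly equal and all below those of 18 DAP (-1.30 ± 0.18 (SE) on the log2 scale, adjusted p = 1.33e-05). Succinate dehydrogenase subunit 7B (Cla97C06G126390) had 312, 231 and 335 TPM at 18 DAP and 125, 133 and 157 TPM at 26 DAP. Its change was -1.07 ± 0.19 (SE) on the log2 scale, adjusted p = 0.000217. Starch and glycolysis genes had 23 of 76 called lower and 12 higher (median -0.31), with 5 to 13 higher and 15 to 25 lower when a clnor library was left out. Glucose-1-phosphate adenylyltransferase (Cla97C02G029600), which opens starch synthesis, had 212, 229 and 198 TPM at 18 DAP and 57.6, 58.3 and 59.9 TPM at 26 DAP. Its change was -1.84 ± 0.24 (SE) on the log2 scale, adjusted p = 8.31e-06. A starch synthase (Cla97C01G017330) had 25.8, 25.5 and 21.7 TPM at 18 DAP and 51, 53.8 and 45.2 TPM at 26 DAP and rose (1.01 ± 0.14 (SE) on the log2 scale, adjusted p = 1.18e-05). Sugar transporters had 5 of 33 higher and 2 lower (median log2 change -0.14, and 2 to 5 higher and 0 to 6 lower with a library left out), and sugar metabolism genes 7 of 58 higher and 9 lower (median log2 change -0.13, and 4 to 11 higher and 5 to 12 lower with a library left out). Sucrose-phosphatase 1 (Cla97C10G200960), which takes the last step of sucrose synthesis, had 48.8, 58.4 and 92.6 TPM at 18 DAP and 25.9, 23.7 and 23.4 TPM at 26 DAP and fell (-1.36 ± 0.16 (SE) on the log2 scale, adjusted p = 2.73e-06). A sucrose transport protein (Cla97C09G183410) had 12.3, 14.2 and 10.4 TPM at 18 DAP and 25, 25.4 and 27.1 TPM at 26 DAP and rose (1.03 ± 0.17 (SE) on the log2 scale, adjusted p = 0.00012).

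Carotenoid genes had 4 of 31 higher and 8 lower (median log2 change -0.10, and 2 to 8 higher and 4 to 7 lower with a library left out). Geranylgeranyl pyrophosphate synthase (Cla97C02G039100), which supplies the building block of carotenoids, had 191, 195 and 373 TPM at 18 DAP and 75.6, 77.7 and 104 TPM at 26 DAP. Its change was -1.49 ± 0.27 (SE) on the log2 scale, adjusted p = 0.00019. Phytoene desaturase (Cla97C07G142100), which starts the desaturation towards lycopene, had 142, 136 and 148 TPM at 18 DAP and 64.4, 74.7 and 70.9 TPM at 26 DAP, without overlap (-1.01 ± 0.19 (SE) on the log2 scale, adjusted p = 0.000285). Phytoene synthase (Cla97C01G008760), which commits the route to carotenoids, was chosen after its values were seen and had 21.8, 25 and 96.8 TPM at 18 DAP and 17.5, 24.5 and 15.3 TPM at 26 DAP. Replicate 3 of 18 DAP stood alone above values that otherwise overlapped between the ages (-0.97 ± 0.34 (SE) on the log2 scale, adjusted p = 0.0309). Without that library the change was -0.3 (adjusted p = 0.241). The call was also lost without replicate 1 or replicate 3 of 26 DAP (adjusted p = 0.105 and 0.0949). Phenylpropanoid genes, of the route to lignin and flavonoids, had 5 of 64 higher and 18 lower (median log2 change -0.36, and 2 to 9 higher and 9 to 17 lower with a library left out). Caffeoyl-CoA 3-O-methyltransferase (Cla97C11G219650), of lignin synthesis, had 246, 211 and 524 TPM at 18 DAP and 84.7, 73.1 and 106 TPM at 26 DAP and fell (-1.78 ± 0.39 (SE) on the log2 scale, adjusted p = 0.00123). 4-coumarate--CoA ligase-like 1 (Cla97C11G219500) had 1.81, 2.36 and 3.43 TPM at 18 DAP and 30.3, 30.5 and 29.6 TPM at 26 DAP and rose (3.17 ± 0.26 (SE) on the log2 scale, adjusted p = 3.39e-08). Peroxidases and laccases had 2 of 28 higher and 8 lower (median log2 change -0.44, and 0 to 2 higher and 5 to 12 lower with a library left out), aroma volatile genes 4 of 30 higher and 9 lower (median log2 change -0.15, and 1 to 7 higher and 6 to 10 lower with a library left out), and cytochrome P450 genes 18 of 78 higher and 9 lower (median log2 change 0.01, and 9 to 23 higher and 3 to 15 lower with a library left out).

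Among the remaining lists, auxin genes had 10 of 92 higher and 21 lower (median log2 change -0.27, and 3 to 13 higher and 10 to 28 lower with a library left out), cytokinin genes 7 of 49 higher and 10 lower (median log2 change -0.27, and 3 to 7 higher and 2 to 17 lower with a library left out) and abscisic acid genes 9 of 49 higher and 8 lower (median log2 change 0.11, and 6 to 16 higher and 2 to 13 lower with a library left out). The abscisic acid shares (18.4% and 16.3%) were near the 18.1% and 17.1% over all genes. So were those of the nutrient transporters below (18.9% and 15.8%). An abscisic acid receptor (Cla97C09G172410) had 234, 228 and 285 TPM at 18 DAP and 63.5, 34.8 and 83.6 TPM at 26 DAP and fell (-2.10 ± 0.40 (SE) on the log2 scale, adjusted p = 0.000382). A two-component response regulator (Cla97C03G052210), of the cytokinin signalling family, had 1.67, 2.08 and 0.39 TPM at 18 DAP and 31.1, 19.1 and 31.2 TPM at 26 DAP and rose (3.61 ± 0.28 (SE) on the log2 scale, adjusted p = 1.33e-08). Nutrient transporters had 18 of 95 higher and 15 lower (median log2 change 0.04, and 11 to 25 higher and 11 to 17 lower with a library left out) and ribosomal proteins 35 of 300 higher and 63 lower (median log2 change -0.05, and 16 to 42 higher and 31 to 94 lower with a library left out). Among the latter, the chloroplast 50S protein L5 (Cla97C05G081650) was listed at 0 in all 3 libraries of 18 DAP and at 13.3, 10.5 and 16.3 TPM at 26 DAP. It was listed at 0 in WT at both ages, and at 13.4 ± 13.2 and 16.5 ± 8.65 TPM in clnor at 10 and 34 DAP (mean ± SD, n = 3). Since an exact 0 can be a failed estimate, no fold is given. Seed markers had 4 of 34 higher and 4 lower (median log2 change -0.05, and 2 to 6 higher and 0 to 6 lower with a library left out), with a summed level of 3157 to 4343 TPM at 18 DAP and 3267 to 4513 TPM at 26 DAP, so that the groups overlapped. Phloem and vascular markers had 3 of 12 higher and 2 lower (median log2 change -0.12, and 0 to 3 higher and 0 to 2 lower with a library left out), with 309 to 614 TPM at 18 DAP and 363 to 689 TPM at 26 DAP, again overlapping. In each of these marker lists, 0 members were at 0 in all 6 libraries.

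To see where the step in clnor departed from that in WT, the difference of the 2 steps was tested for each gene, using the WT libraries of 18 and 26 DAP. In WT, 5042 genes (33.6%) were called between these ages, 2387 higher and 2655 lower. The WT calls and the difference of steps covered only the 15001 genes kept by their level in clnor. Genes expressed in WT alone were left out of both. In both genotypes 1655 genes were called higher and 1636 lower. Opposite calls were few, with 3 genes higher in clnor and lower in WT and 7 the reverse. The difference of steps was called for 47 genes (0.313%), 26 with the higher change in clnor and 21 with the lower. This count rested on single libraries: without replicates 1, 2 and 3 of clnor 18 DAP it was 9, 6 and 347, without those of clnor 26 DAP 13, 63 and 26, without those of WT 18 DAP 3, 38 and 92, and without those of WT 26 DAP 6, 13 and 182. Without both replicate 3 libraries of 18 DAP, each of which was nearest to the other genotype (0.975 and 0.965), it was 905, so the 47 genes depend on the labels of these libraries. Whether they were exchanged was not tested. The calls of the endoglucanase, gamma-glutamylcyclotransferase and Pumilio genes described next held in every alternative run that tested them. The endoglucanase and Pumilio genes were not tested under the filter of 5 TPM in at least 3 of the 6 clnor libraries. An endoglucanase (Cla97C11G210630), of a family that cuts wall glucans, had 0.78, 3.72 and 2.13 TPM at 18 DAP and 1, 0.25 and 0.66 TPM at 26 DAP in clnor. In WT it had 1.81, 7.31 and 2.06 TPM at 18 DAP and 30.2, 27.9 and 20.5 TPM at 26 DAP. Only the WT libraries of 26 DAP were high, and the step in clnor minus that in WT was -3.58 ± 0.46 (SE), adjusted p = 0.000912. Gamma-glutamylcyclotransferase (Cla97C08G155750), of an enzyme family of glutathione turnover, had 17.6, 20.3 and 24.2 TPM at 18 DAP and 10.2, 9.24 and 10.8 TPM at 26 DAP in clnor. In WT it had 22, 38.9 and 25.2 TPM at 18 DAP and 51.8, 76.6 and 52.4 TPM at 26 DAP. It fell in clnor (adjusted p = 0.000371) and rose in WT (adjusted p = 0.000596), and the difference was -2.02 ± 0.28 (SE), adjusted p = 0.00143. Pumilio-12-like protein (Cla97C03G064790), of a family of RNA-binding proteins, had 4.01, 5.49 and 7.04 TPM at 18 DAP and 3.6, 2.74 and 4.9 TPM at 26 DAP in clnor. In WT it had 9.42, 6.96 and 4.14 TPM at 18 DAP and 41.3, 42 and 33.5 TPM at 26 DAP. The high values were those of WT 26 DAP alone (-2.86 ± 0.40 (SE), adjusted p = 0.00143). COBW domain-containing protein 1-like (Cla97C10G185750) had 6.69, 9.02 and 7.44 TPM at 18 DAP and 10.2, 13.6 and 11.1 TPM at 26 DAP in clnor and 9.2, 8.17 and 7.1 TPM at 18 DAP and 67.4, 68 and 42.4 TPM at 26 DAP in WT, with the WT 26 DAP libraries far above the rest (-2.16 ± 0.37 (SE), adjusted p = 0.0144). In the other direction, an S-adenosyl-L-methionine-dependent methyltransferase (Cla97C11G214700) had 207, 225 and 174 TPM at 18 DAP and 186, 221 and 197 TPM at 26 DAP in clnor, overlapping, and 205, 103 and 156 TPM at 18 DAP and 43.6, 34.7 and 47.6 TPM at 26 DAP in WT, where it fell (difference 1.81 ± 0.29 (SE), adjusted p = 0.00673). A cytochrome P450 (Cla97C05G100870) had 336, 318 and 241 TPM at 18 DAP and 49.3, 49.2 and 50.1 TPM at 26 DAP in clnor, where it fell, and 319.5, 276 and 236 TPM at 18 DAP and 405, 400.2 and 329 TPM at 26 DAP in WT, where it was not called (difference -3 ± 0.53 (SE), adjusted p = 0.0154). The pectinesterase Cla97C09G168010, which rose in clnor, had 3.12, 4.95 and 7.24 TPM at 18 DAP and 10.1, 7.19 and 6.48 TPM at 26 DAP in WT (difference 2.78 ± 0.60 (SE), adjusted p = 0.0485), and this call held in 12 of 24 alternatives.

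**Figure D5:**
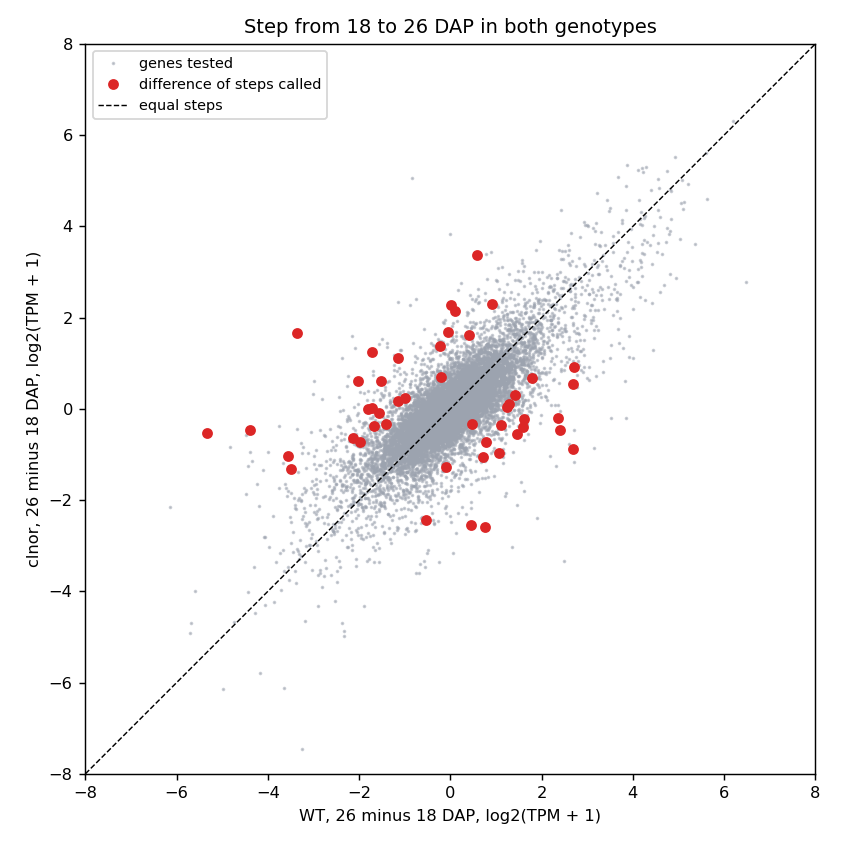
Change from 18 to 26 DAP on the log2(TPM + 1) scale in WT (horizontal axis) and in clnor (vertical axis) for the 15001 genes tested (grey), with the 47 genes whose difference of steps was called in red and a dashed line at equal steps. The endoglucanase Cla97C11G210630 is at 2.70 in WT and -0.89 in clnor, and gibberellin 20-oxidase is lowest on the vertical axis at -7.45.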

How the data were processed

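The 30 libraries came from watermelon flesh of 2 genotypes at 5 ages. The labels' protocols name Trizol, an RNeasy kit with DNase I and TruSeq libraries. Cufflinks, StringTie, HISAT2 and TopHat2 are named in the submitters' processing notes, with no version, and the genome build is not given in the sources. The authors deposited TPM per gene and library, mapped by column name, and 0 columns belonged to other samples. TPM keeps no depth, so depth and counting precision are unknown, and strand use is not stated, so antisense partners cannot be told apart.

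From the deposited TPM, log2(TPM + 1) was fitted over all 30 libraries in 10 groups with limma 3.58.1 in R 4.3.3 (group variance weights, eBayes with trend and robust, 20 residual degrees of freedom, two-sided). Benjamini-Hochberg adjustment ran over the 15001 genes, which were called at an adjusted p below 0.05; 7595 genes were left out as too low. The fit was tested on simulated data with normal noise, in which far fewer genes changed than were called here. It recovered 65.2% of changes of 1 on the log2 scale, 92.5% of changes of 2 and 97% of changes of 3. Of the simulated calls, 3.95% were false. Its setting thus differed from these data. Library positions used genes chosen without the library placed, by size of change and not by a call. The means of the 2 ages had to differ 2-fold or more, with at least 5 TPM in the higher.

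The members, 36 gene lists and 3 marker lists (epidermis and cuticle, seed, phloem and vascular), found by words in the gene descriptions, were chosen with earlier results of these data known, and accidental matches were removed after the descriptions were read, those of the phloem list after values were seen; the clock and chlorophyll-binding lists were added after values were seen. Genes are named by rule: the 12 largest rises and falls among called, described genes with non-overlapping libraries and a higher mean of at least 10 TPM, the 6 largest changes in TPM each way, the 3 smallest p of each list, and the 6 smallest p of the difference between genotypes (148 genes). Others are marked as chosen after their values were seen; that holds also for the clock genes except LHY. Alternatives covered pseudocount, filter, scaling, spread, block and left-out libraries. No sequences were used here.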

Additional observations from a re-analysis of the deposited data

Results flagged for a closer look

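In 47 genes the step from 18 to 26 DAP differed between clnor and WT by a test of the difference itself (limma). The p-values were adjusted over the 15001 genes kept by their level in clnor. Differences below are clnor minus WT on the log2 scale. The 6 genes with the smallest p were an endoglucanase (Cla97C11G210630, -3.58, adjusted p = 0.000912), gamma-glutamylcyclotransferase (Cla97C08G155750, -2.02, adjusted p = 0.00143), Pumilio-12-like protein (Cla97C03G064790, -2.86, adjusted p = 0.00143), a methyltransferase (Cla97C11G214700, 1.81, adjusted p = 0.00673), a COBW domain protein (Cla97C10G185750, -2.16, adjusted p = 0.0144) and a cytochrome P450 (Cla97C05G100870, -3, adjusted p = 0.0154). An ACC synthase (Cla97C01G017090) differed by 2.27 (adjusted p = 0.0236) and a pectinesterase (Cla97C09G168010) by 2.78 (adjusted p = 0.0485). Further genes were chosen after their values were seen. Terpene synthase 10-like (Cla97C02G027120) differed by 5.03 (adjusted p = 0.0469), with 7.52, 9.41 and 108 TPM at 18 DAP and 49.8, 48 and 126 TPM at 26 DAP in clnor. In WT it had 22.2, 57.1 and 19.1 TPM at 18 DAP and 1.28, 0.81 and 5.13 TPM at 26 DAP. Cytochrome P450 genes Cla97C03G054220 (3.94, adjusted p = 0.0433) and Cla97C03G054230 (4.79, adjusted p = 0.0469) were not called in clnor and fell in WT. Fasciclin-like arabinogalactan protein 11 (Cla97C04G075610) differed by 2.27 (adjusted p = 0.0199), rising in clnor and falling in WT. A DELLA protein (Cla97C09G167510), of the repressors of gibberellin signalling, differed by -1.76 (adjusted p = 0.0469) and fell in clnor. Over 23 or 24 alternatives each, calls held in 15 for the ACC synthase, the terpene synthase and both P450 genes just named, 16 for the DELLA gene, 19 for the arabinogalactan protein, 20 for Cla97C05G100870, 21 for the COBW gene and 23 for the methyltransferase. Without replicate 3 of clnor 18 DAP and replicate 3 of WT 18 DAP, each nearest to the other genotype, 905 genes differed in place of 47.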

How the results depend on the processing

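No named gene's change reversed with a call in any alternative run. Of 3573 values of named genes under the alternatives, 3516 kept call and direction, 36 lost the call and 21 gained one. The number of genes called in clnor ranged from 2924 to 6750 when a clnor library was left out, genes called higher from 1537 to 3434 and lower from 1321 to 3316. Requiring a 2-fold change gave 2291 genes, 1174 higher and 1117 lower. The 6 libraries alone gave 4038 genes, and upper-quartile scaling and quantile normalization gave 5501 and 5609; calls higher made up 49.7 to 54.4% over the scalings. The difference between genotypes ranged from 3 to 347 genes when a library was left out. With no filter on level it was 64 of 19814 genes tested. It was 77 with 1 spread for all groups and 29 with the replicate block, and 905 without replicate 3 of clnor 18 DAP and replicate 3 of WT 18 DAP, each nearest to the other genotype (6755 genes were then called in clnor), an alternative chosen after seeing the data, as were the 2-fold rule and the lists as first written. In these the ethylene list had 5 genes called higher and 11 lower, the organic acid list 2 and 17. Deviations of log2 values from the group means correlated between same-numbered clnor libraries of 18 and 26 DAP at -0.156, 0.0451 and -0.00505, and no 18 DAP library's deviations correlated best with those of its own number, so the numbers were not taken to pair the samples; with the replicate block 5163 genes were called in clnor. The causes were not tested. With 3 libraries a group and no depth, low transcripts and the size of single steps are the least certain values.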
